A study of Mus musculus with 6 samples.

Results

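The comparison of C2C12 myoblasts with day 3 myotubes was made over 4729 autosomal bins of 500 kb, out of 4930 autosomal bins and 5455 bins in all. A bin was included when its correlation with itself in the deposited matrix exceeded 0.5 in both conditions, which marks bins that held data. The remaining 201 autosomal bins and the sex chromosomes were left out. Genome organization had been measured by Hi-C, which cross-links chromatin, cuts it with HindIII, ligates ends that lie near each other in the nucleus and sequences the joined pairs (di-tags). Myoblasts were plated at low density and harvested below confluence after 72 h of proliferation. Myotubes were plated at high density and moved to medium with horse serum after the same 72 h. They were harvested without AraC on day 3, counted from that change of medium. A further condition of the same series, myotubes kept to day 7 with 10 µg/ml of AraC (a cytidine analogue that kills dividing cells), is given beside single bins and runs only, since it would share the myoblasts as its control. Each condition had 2 biological replicates, grown by the study's methods from separate vials of cells on separate days, but the labels of both name the same single matrix, so no test between conditions and no SD between replicates could be given. C2C12 is 1 mouse myoblast line derived from the thigh muscle of C3H mice, and the day 3 cultures still held undifferentiated myoblasts. Plating density, serum and time in culture changed together with differentiation and cannot be told apart from it. The matrices hold no expression values, so the labelled cell types could not be checked against RNA markers here.

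In interphase nuclei, active and gene-rich chromatin (the A compartment) contacts other active chromatin, and silent, gene-poor chromatin (the B compartment) contacts other silent chromatin. The first principal component of the correlation matrix of a chromosome (PC1) separates the compartments, and here its sign was set so that positive values went with more protein-coding transcription start sites (TSSs). During myogenesis, MYOD1 and MYF5 commit cells to the lineage, MYOG drives terminal differentiation, and myoblasts leave the cell cycle and fuse into multinucleate myotubes that assemble sarcomeres.

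PC1 was divided by its SD for each chromosome and condition, and values below are in these SD units. Most of the genome kept its place. Scaled PC1 of myoblasts and myotubes correlated across the 4729 bins (Pearson r = 0.966), a description over bins that share chromosomes and libraries. The median absolute change was 0.131, and 95% of the bins changed by less than 0.555. Bins were said to have risen or fallen when scaled PC1 changed by more than 0.5. In all, 181 bins rose (3.83% of bins, exact 95% interval 3.30 to 4.41%) and 140 fell (2.96%, 2.50 to 3.48%). The intervals cover counting error only, and neighbouring bins are not independent. As a measure of the precision within a matrix, PC1 computed from odd and from even partner bins of the same condition differed with an SD of 0.143 in myoblasts and 0.0687 in myotubes, against an SD of 0.262 for the change between conditions. In neither condition did any bin differ by more than 0.5 between the odd and the even partners. Both sets read the di-tags of the same bin and library, so the spread between cultures is not in this value.

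**Figure D1:**
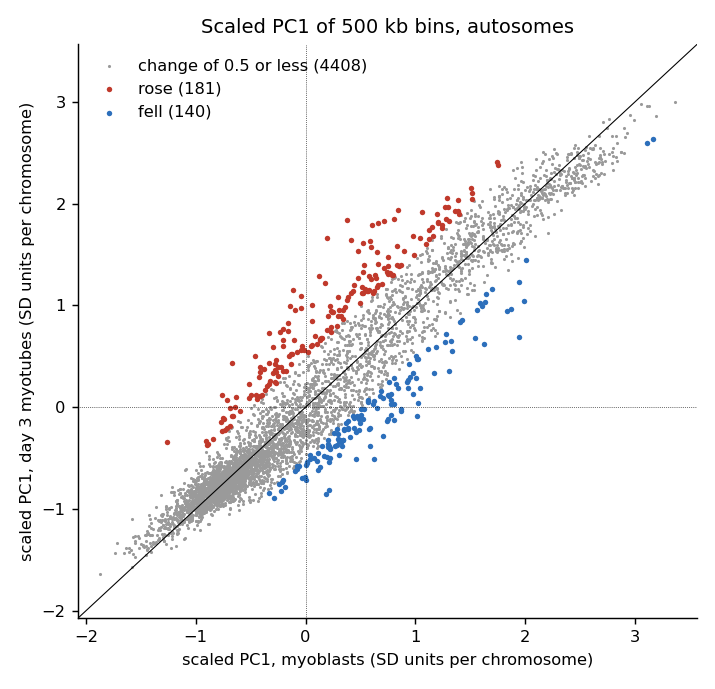
Scaled PC1 of each of the 4729 bins in myoblasts (x axis) and day 3 myotubes (y axis), in SD units per chromosome. Red points are the 181 bins that rose by more than 0.5, blue points the 140 that fell, and the line marks equal values. Of the risen bins 83 and of the fallen bins 94 lie between 0 and 1 in myoblasts, as do 966 of all 4729 bins.

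The changed bins came from the middle of the scale. Risen bins went from a median scaled PC1 of 0.234 to 0.959, and fallen bins from 0.551 to -0.116. Of the 181 risen bins, 109 lay in A in both conditions, 56 moved from B to A and 16 stayed in B. Of the 140 fallen bins, 57 stayed in A, 70 moved from A to B and 13 lay in B throughout. On this scale rises were therefore mostly gains within A, and falls were crossings into B in 70 of 140 bins. The threshold of 0.5 weighs differently in the compartments. In myoblasts the quartiles were -0.875 and -0.468 for bins in B in both conditions, and 0.549 and 1.76 for bins in A in both. With PC1 turned to ranks, an alternative given below, the compartments of the called bins were not computed. The bins nearest the threshold were a bin of chr 5 (chr5:112000001-112500000) that rose by 0.504 and one of chr 10 (chr10:82000001-82500000) at 0.494, which was not counted. On the other side, a bin of chr 5 (chr5:76500001-77000000) fell by 0.503 and one of chr 6 (chr6:48000001-48500000) changed by -0.499.

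The largest rises were found on chr 8 and at the titin gene. The bin chr8:118500001-119000000, which has no protein-coding TSS, went from 0.198 in myoblasts to 1.67 in myotubes (a rise of 1.47). Its neighbour chr8:119000001-119500000, with Hsbp1, Mlycd, Osgin1 and Necab2, went from 0.381 to 1.84 (1.46). Mlycd encodes malonyl-CoA decarboxylase, which relieves the brake on fatty acid oxidation. The preceding bins were among the 8 largest rises as well. One, with Cdh13 (T-cadherin, chr8:118000001-118500000), went from 0.657 to 1.81, and the other, with Sdr42e1, Hsd17b2 and Mphosph6 (chr8:117500001-118000000), from 0.121 to 1.28. The day 7 values of these 4 bins were 1.87, 2.04, 1.89 and 1.51, all above the myoblast values.

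The third largest rise was at chr2:76500001-77000000, which holds Ttn together with Prkra, Pjvk, Fkbp7 and Plekha3. Titin is the giant protein that spans the sarcomere from Z disc to M line. Its bin had a scaled PC1 of -0.113 in myoblasts and 1.15 on day 3, with 1.28 on day 7, so it lay just inside B in myoblasts and in A afterwards. It was also the largest change among the 130 bins that went from B to A. Its profile of coefficients with the other bins of chr 2 was inverted between the conditions (r = -0.522). The next B to A bins in order of size were chr10:84000001-84500000 with Nuak1, a kinase of the AMPK family (-0.045 to 1.09), and chr8:128500001-129000000 with Itgb1, the integrin beta 1 subunit that muscle cells use to attach to laminin (-0.138 to 0.991). Other rises among the first 8 were a bin of chr 8 without protein-coding TSSs (chr8:127500001-128000000, 0.417 to 1.64) and chr3:55000001-55500000 with Ccna1, Spg20, Ccdc169, Sohlh2 and Dclk1 (0.607 to 1.79).

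The gain of A character could be read in single coefficients, although all coefficients were spread more widely in myotubes. Within chromosomes, over pairs more than 2 Mb apart, their SD was 0.0530 in myoblasts and 0.0986 in myotubes. Between autosomes it was 0.0446 and 0.0890. The size of a change below therefore includes this wider spread, and the part of each was not tested. In myoblasts, the Ttn bin had a mean coefficient of 0.00376 with A bins of chr 2 and 0.0230 with its B bins. In myotubes these means were 0.129 and -0.0591. With other autosomes the means went from 0.00116 to 0.106 for A bins and from 0.0105 to -0.0714 for B bins. The largest single changes were with the bin of Runx1 on chr 16 (chr16:92500001-93000000, 0.00497 to 0.336), with a bin 45 Mb away that holds Abl1 and Nup214 (chr2:31500001-32000000, -0.0402 to 0.278) and with the bin beside Runx1 (chr16:93000001-93500000, 0.000329 to 0.310). All of these partners were deep in A in both conditions, with scaled PC1 between 2.38 and 2.64. The top bin of chr 8 changed most with chr16:92000001-92500000 (Mrps6, Slc5a3, Kcne2, Rcan1; 0.0632 to 0.425), with chr8:119500001-120000000 only 1 Mb away (0.0497 to 0.410) and with chr19:5000001-5500000 (-0.0487 to 0.310). Its neighbour changed most with chr8:120000001-120500000 (0.0812 to 0.471), chr2:28500001-29000000 (0.0395 to 0.417) and chr19:6000001-6500000 (-0.000934 to 0.374).

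The largest fall was at chr6:52500001-53000000, with Hibadh and Tax1bp1, from 1.94 in myoblasts to 0.687 in myotubes and 0.644 at day 7, so the bin stayed in A. Hibadh acts in valine breakdown. It adjoins the HoxA cluster, whose own bin is described with the runs. Next came chr13:13000001-13500000, with Prl2c2, Prl2c5, Gpr137b and Nid1, from 0.620 to -0.507. Nid1 encodes nidogen, a basement membrane protein that links laminin to collagen IV. Its profile along chr 13 was the most inverted of all bins (r = -0.708). The bin of Prkar2b, Pik3cg and Ccdc71l (chr12:32000001-32500000) fell from 1.01 to -0.090, and its profile was inverted too (r = -0.693). The bin of Sox1, a transcription factor of neural progenitors, fell from 0.188 to -0.847 (chr8:12000001-12500000).

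The other bins of the 8 largest falls held Edaradd, Ero1lb and Prl2c3 (chr13:12500001-13000000, 0.217 to -0.816), Prss55, Prss51, Prss52 and Msra (chr14:64000001-64500000, 1.62 to 0.623), Nectin1 (chr9:43500001-44000000, 1.03 to 0.0427) and Cebpa with Cebpg and others (chr7:35000001-35500000, 0.703 to -0.280). CEBPA is a transcription factor of adipocyte differentiation. At day 7 the Msra bin stood at 1.25, between its myoblast and day 3 values. The loss of A character was again spread over many partners. Of the Nid1 bin, the mean coefficient with A bins of other autosomes went from 0.0364 to -0.0520 and that with B bins from -0.0108 to 0.0509. Its largest changes were with chr19:4500001-5000000 (Actn3, Npas4; 0.112 to -0.141), chr19:4000001-4500000 (0.104 to -0.132) and chr10:80000001-80500000 (Stk11, Tcf3; 0.0970 to -0.130). The Hibadh bin changed most with chr11:119500001-120000000 (0.234 to 0.0429), chr15:79000001-79500000 (0.227 to 0.0389) and chr8:122000001-122500000 (0.247 to 0.0598), and the Prkar2b bin with chr11:4500001-5000000 (0.136 to -0.0643), chr9:58500001-59000000 (0.107 to -0.0898) and chr2:29000001-29500000 (0.0984 to -0.0944).

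Changed bins lay next to each other. Of the 181 risen bins, 124 (68.5%) were in 39 runs of at least 2 adjacent bins, and of the 140 fallen bins, 100 (71.4%) were in 32 runs. Runs of 4 or more bins numbered 8 in each direction. All 19 autosomes had a run of risen bins, while runs of fallen bins were found on 11.

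The longest risen run covered 13 bins (6.5 Mb) at chr9:113500001-120000000 and held 50 protein-coding genes. Its mean scaled PC1 went from -0.389 to 0.416, and 2 of its bins were in A in myoblasts but 10 in myotubes. At day 7 the mean was 0.894. The rises within it ranged from 0.574 to 1.10. It includes Tgfbr2, the type II receptor of TGF-beta (-0.044 to 0.972), and Acvr2b, a receptor of myostatin (0.225 to 0.990). The second run, 9 bins at chr8:125000001-129500000, reached the end of the chromosome and held Itgb1, Nrp1 (a co-receptor of semaphorins and VEGF), Pard3 (a polarity protein) and Disc1, with a mean of 0.361 in myoblasts and 1.29 in myotubes. The third, 7 bins at chr3:97000001-100500000, held Notch2, the Hsd3b steroid dehydrogenase genes and Tbx15, a transcription factor of fast muscle fibres. Its mean was 0.0128 in myoblasts, 0.758 in myotubes and 1.64 at day 7. Runs of 6 bins lay at chr6:146500001-149500000 (Itpr2, Pthlh, Bicd1; mean 0.642 to 1.62) and chr13:100500001-103500000 (Ccnb1, Cdk7, Pik3r1, Mast4; 1.01 to 1.78), the latter in A throughout.

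The longest fallen run covered 10 bins (5 Mb) at chr6:49000001-54000000 with 39 protein-coding genes. Its mean fell from 1.33 to 0.495 and stood at 0.346 at day 7. All 10 bins were in A in myoblasts and 7 in myotubes. The bin of the HoxA genes, which specify position along the body axis, went from 1.99 to 1.04 (chr6:52000001-52500000) and the bin of Npy from 0.213 to -0.543. The heterochromatin protein gene Cbx3 shares a bin with Hnrnpa2b1 and Nfe2l3 that went from 1.30 to 0.352. The next run, 7 bins at chr14:65000001-68500000, went from a mean of 0.667 to -0.0543, and held Clu, Scara5, Ebf2, Dpysl2, the neurofilament genes Nefl and Nefm (0.00405 to -0.717) and the mitotic genes Pbk, Esco2 and Cdca2. Of its bins, 7 were in A in myoblasts and 2 in myotubes. Shorter runs lay at chr2:3000001-6000000 (6 bins, Mcm10, Suv39h2, Camk1d; 0.887 to 0.314), at chr8:10500001-13000000 (5 bins, Irs2, Col4a1, Col4a2, Sox1; 0.649 to -0.141) and at chr13:12500001-14500000 (4 bins, Nid1, Lyst, Arid4b; 0.357 to -0.562), where 4 bins were in A in myoblasts and 0 in myotubes.

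**Figure D2:**
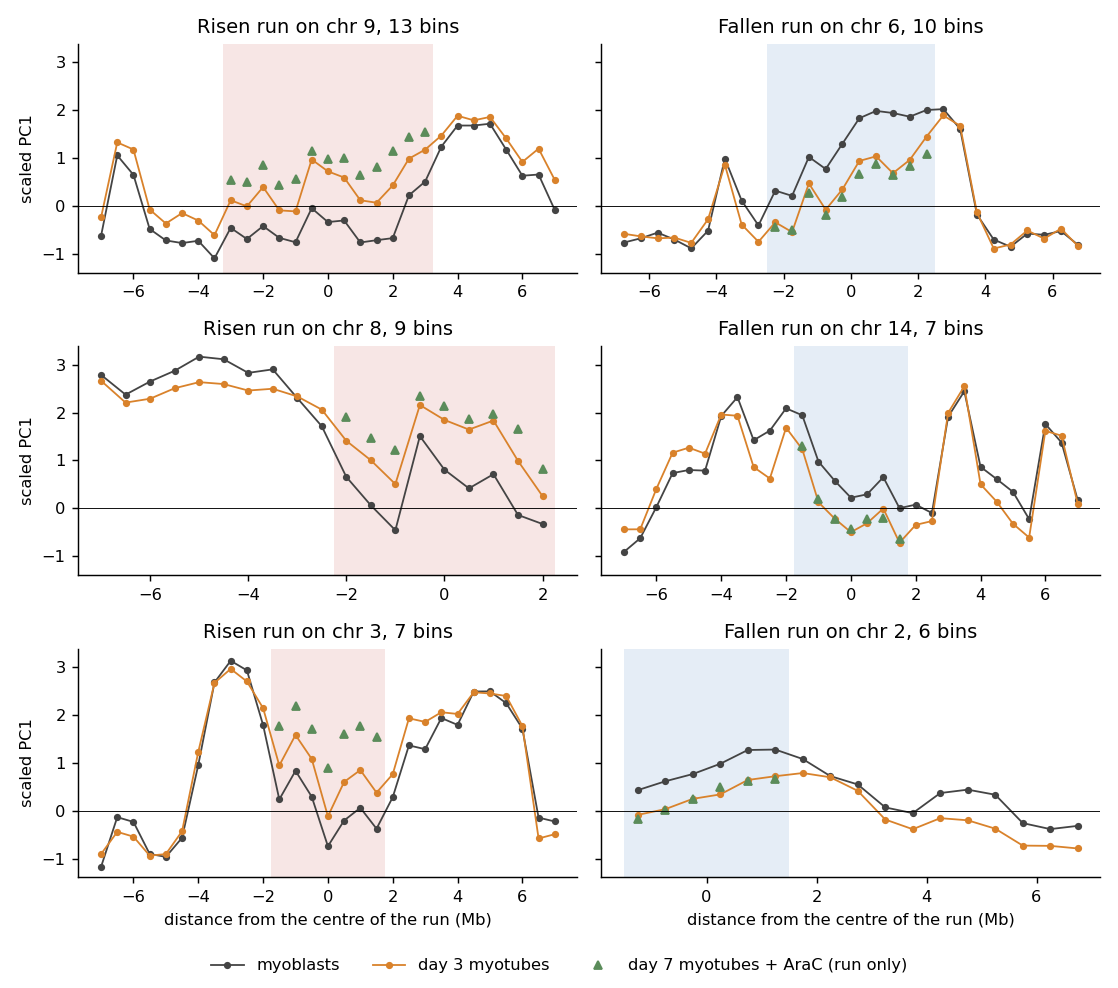
Scaled PC1 (y axis) along 7 Mb to either side of the centre of the 3 longest risen runs (left, red shading) and fallen runs (right, blue shading), by distance in Mb (x axis). Grey points are myoblasts, orange points day 3 myotubes and green triangles AraC-treated myotubes, drawn inside the runs only. The orange line leaves the grey line over several adjacent bins in each shaded stretch. In the risen runs all green triangles lie above the orange points.

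Rises gathered towards the distal ends of chromosomes. Mouse chromosomes are telocentric, so the last bins are those farthest from the centromere. Of the 181 risen bins, 56 (30.9%) lay within 10 Mb of the last bin of their chromosome, as did 5 of the 140 fallen bins (3.57%) and 366 of all 4729 bins (7.74%). Near the first bin with data the order was the other way, with 13 risen bins (7.18%), 23 fallen bins (16.4%) and 373 of all bins (7.89%). Chr 9 had 13 risen bins in its last 10 Mb and chr 8 had 9, and the other autosomes held 34 of the 56. The mean change over the last 10 Mb was above 0 on 14 of 19 autosomes. It was largest on chr 9 (0.205 to 0.802), chr 8 (1.61 to 1.92) and chr 6 (0.301 to 0.610) and lowest on chr 3 (-0.455 to -0.652). Distal bins had a median GC content of 44.5%, against 41.5% elsewhere. On chr 8 and chr 9 the correlation of PC1 with position also differed between conditions, at 0.212 and 0.390 on chr 8 and 0.103 and 0.277 on chr 9. The part of this gradient in the distal rises was not tested separately on each chromosome. When a linear trend with position was removed from PC1 (an alternative chosen after seeing the data), 36 of 146 risen bins (24.7%) and 13 of 129 fallen bins (10.1%) were in the last 10 Mb, and the excess of fallen bins near the first bin with data was no longer seen (7, 5.43%). A component computed only from coefficients with other autosomes placed 65 of 217 risen bins (30.0%) in the last 10 Mb. Where the bins called with PC1 turned to ranks lie along the chromosomes was not computed, and many of those are other bins.

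The share of changed bins differed between chromosomes. It was highest on chr 13 (13.4%, 11 risen and 20 fallen bins), chr 8 (12.0%, 20 and 10) and chr 6 (11.1%, 11 and 21), and lowest on chr 11 (2.11%, 5 and 0) and chr 4 (2.36%, 5 and 2). On chr 15, chr 16 and chr 19, as on chr 11, no bin fell. Chr 13 had the weakest relation of PC1 to TSS number (r = 0.122 in myoblasts and 0.0569 in myotubes), against at least 0.270 on the other autosomes. Its sign was the same as that of its coefficients with other autosomes in these matrices. Scaled PC1 of chr 13 correlated across bins with the mean coefficient with A minus B bins of other autosomes (r = 0.994 in myoblasts and 0.997 in myotubes). Each coefficient is a correlation of whole profiles, so this is no independent measure.

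**Figure D3:**
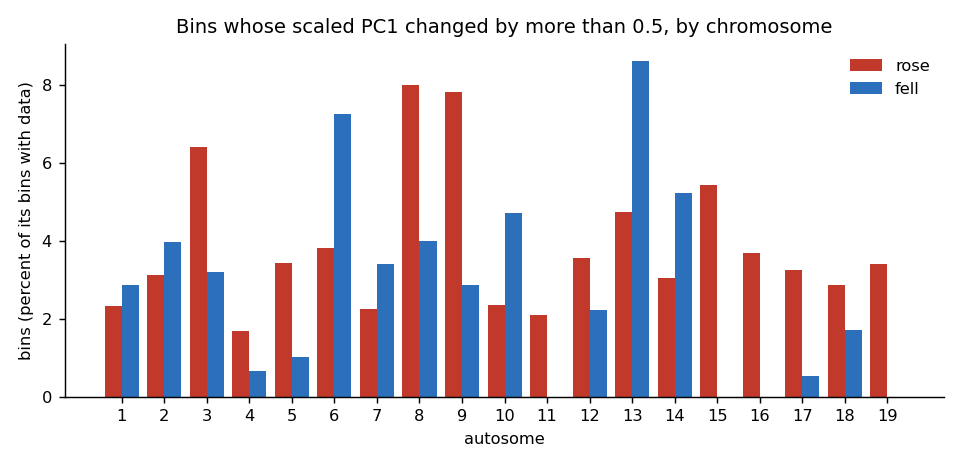
Share of the bins of each autosome (x axis) whose scaled PC1 rose (red) or fell (blue) by more than 0.5, in percent of its bins with data (y axis). Chr 13, chr 8 and chr 6 have the largest summed shares. Chr 11, chr 15, chr 16 and chr 19 have no blue bar.

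By the sign of PC1, 216 bins (4.57%, exact interval 3.99 to 5.20%) went from A to B and 130 (2.75%, 2.30 to 3.26%) from B to A, together 7.32% of bins. Most of these crossings were small. The median absolute change was 0.388 for A to B and 0.467 for B to A, and only 17 bins in each direction had an absolute scaled PC1 above 0.25 in both conditions. The A to B bins formed 141 separate stretches, of which 119 (84.4%) adjoined a bin that was already in B in myoblasts. The B to A bins formed 104 stretches, and 80 (76.9%) adjoined a bin already in A. Most of these stretches thus adjoined a compartment that was already there. The share of all bins at such an edge was not computed, so these values cannot be set against it. A segments numbered 365 in myoblasts and 345 in myotubes, each with a median length of 1.5 Mb, and B segments 403 and 378, each with a median of 2.5 Mb. The share of bins in A was 38.3% in myoblasts and 36.5% in myotubes.

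The contrast between compartments was larger in the myotube matrix, in cis and in trans. Bins were taken as A or B here where the sign was the same in both conditions (1594 and 2789 bins). For bins of one chromosome more than 2 Mb apart, the mean coefficient of A with A was 0.0689 in myoblasts and 0.112 in myotubes, that of B with B 0.0437 and 0.0831, and that of A with B -0.0263 and -0.0664. Like minus unlike pairs therefore gave 0.0826 and 0.164, a ratio of 1.98. Between different autosomes the values were 0.0602 and 0.101 for A with A, 0.0221 and 0.0616 for B with B, and -0.0255 and -0.0669 for A with B, so the contrast went from 0.0666 to 0.148, a ratio of 2.22. All coefficients were spread more widely in myotubes, however. Their SD was 0.0530 and 0.0986 in cis and 0.0446 and 0.0890 in trans. Relative to these SDs, the contrast was 1.56 and 1.66 in cis (a ratio of 1.07) and 1.49 and 1.66 in trans (1.11). In the same way, PC1 before scaling had an SD 1.73 to 2.16 times larger in myotubes on each autosome, and it held 26.3 to 69.2% of the variance in myoblasts and 56.1 to 90.3% in myotubes. The study's supplement gives more valid di-tags for the myotube pool than for the myoblast pool, and their part in the wider spread was not tested. The coefficients of the same pairs correlated between conditions with r = 0.880 in cis and 0.840 in trans, across pairs that share bins.

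**Figure D4:**
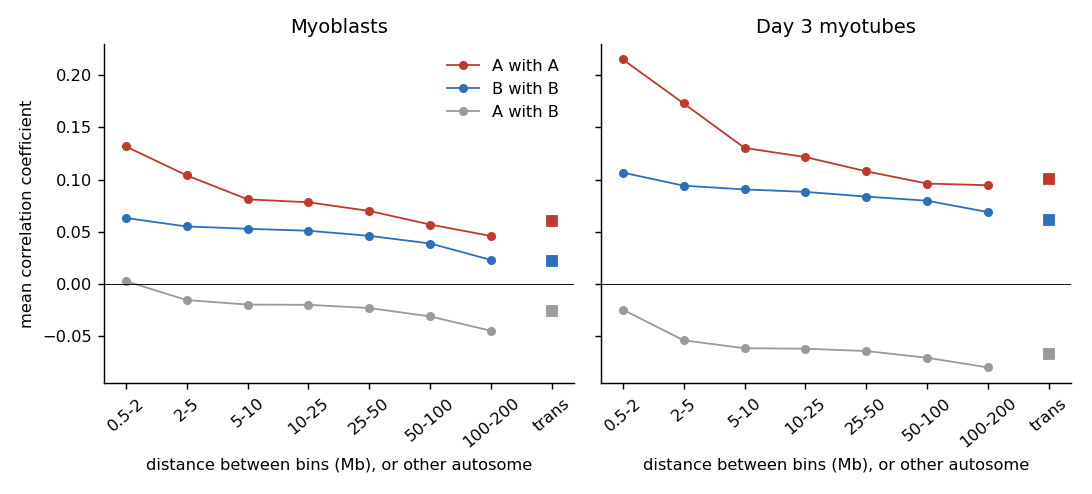
Mean correlation coefficient (y axis) of pairs of bins by their distance in Mb or, as squares, on different autosomes (x axis), for myoblasts (left) and day 3 myotubes (right). Red marks A with A, blue B with B and grey A with B, for bins with the same sign of PC1 in both conditions. At every distance the grey line lies farther below the red and blue lines in myotubes, and the trans squares follow the same order.

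Trans coefficients moved with the cis component. The trans score of a bin was its mean coefficient with A bins minus that with B bins of other autosomes, centred and scaled by its SD over bins. It was higher in myotubes in 181 of the 181 risen bins, with a median change of 0.708, and lower in 140 of the 140 fallen bins, with a median of -0.571. Over all bins it was higher in 45.0%, with a median of -0.0225. These values come from the same matrices as PC1 and each coefficient is a correlation of whole profiles, so they describe the same change in other blocks and are no independent measure of it. For Ttn the trans score went from -0.137 to 1.25 and for the Nid1 bin from 0.634 to -0.512. The larger HIST1 bin of chr 13 (chr13:23500001-24000000) went from 0.860 to 0.178.

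Genes were assigned to the bin of their TSS. Of 20370 protein-coding genes in these bins, 833 (4.09%) lay in risen and 766 (3.76%) in fallen bins, and their median change was -0.00651. Genes that share a bin share its value. The shares of 4.09 and 3.76% are the background for the counts of every list below.

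None of the 4 myogenic regulatory factors was in a changed bin. Myod1 lay in A with 1.51 in myoblasts and 1.65 in myotubes (chr7:46000001-46500000), and Myog deep in A with 2.57 and 2.42 (chr1:134000001-134500000). With PC1 turned to ranks within the chromosome and then to normal quantiles, an alternative scale, the change at Myog was -0.577 and passed the threshold. Myf5 and Myf6, in one bin of chr 10 (chr10:107000001-107500000), lay in B with -0.520 and -0.568. Of 11 MEF2 and muscle transcription cofactor genes, 1 was in a fallen bin and 0 in risen bins. It was Eya1, a transcriptional cofactor (0.807 to -0.123).

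The list of thick filament genes with titin and nebulin had the largest median of the muscle lists. Of 20 genes in 15 bins, 3 (15%) were in risen bins and 0 in fallen bins, and the median change was 0.401. The shares of all protein-coding genes were 4.09 and 3.76%. Besides Ttn, the risen genes were Neb, which encodes nebulin along the thin filament (-0.180 to 0.358, B to A), and Myl3, a light chain of slow and cardiac myosin (0.652 to 1.18). The myosin heavy chain cluster of chr 11, with Myh1, Myh2, Myh3, Myh4, Myh8 and Myh13 in 1 bin (chr11:67000001-67500000), stood at -1.21 in myoblasts and -0.779 on day 3, with -0.541 on day 7. It remained in B, and its change of 0.435 was below the threshold, but these 6 genes weigh on the list's median. With ranked PC1 the bin rose by 1.53, more than the Ttn bin (0.811), so its call depends on the scale. The list then had 9 genes in risen bins and 1 in a fallen bin, against 913 and 728 of all 20370 protein-coding genes.

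The Ttn and Itgb1 promoters, RefSeq windows of GRCm38.p6 from 250 bases before to 50 after the start, are shown because these genes had the largest rises among the muscle lists, with E-box letters in capitals. E-boxes, CANNTG, are the letters that MYOD1 and MYOG bind, and 72.3% of the 32851 promoters in the table hold at least 1 (CAGCTG 16.3%). The Ttn window, on the minus strand at chr2:76982498-76982797, holds 1 such match, while the Itgb1 window, on the plus strand at chr8:128685404-128685703, holds 0. The motif is its own reverse complement in the fixed letters, so both strands were covered. Itga7 and Ncam1 had the next largest rises.
Ttn: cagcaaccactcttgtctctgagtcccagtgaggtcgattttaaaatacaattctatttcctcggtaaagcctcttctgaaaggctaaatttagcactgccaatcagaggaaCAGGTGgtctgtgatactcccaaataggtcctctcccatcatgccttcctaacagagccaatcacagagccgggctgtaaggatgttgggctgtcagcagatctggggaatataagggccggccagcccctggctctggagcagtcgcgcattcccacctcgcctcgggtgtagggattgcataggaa
Itgb1: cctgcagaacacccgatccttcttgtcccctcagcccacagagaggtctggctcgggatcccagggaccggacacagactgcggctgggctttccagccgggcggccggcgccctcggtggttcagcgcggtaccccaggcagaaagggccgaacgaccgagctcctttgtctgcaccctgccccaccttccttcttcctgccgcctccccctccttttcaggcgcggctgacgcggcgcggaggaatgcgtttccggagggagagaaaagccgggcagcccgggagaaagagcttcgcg

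Thin filament and Z disc genes had 1 risen gene of 27 and 0 fallen, with a median change of 0.0980. The gene was Lmod3, which nucleates actin filaments in muscle, and it stayed in B (-0.764 to -0.237). Acta1, skeletal alpha actin, lay deep in A with 2.90 in myoblasts and 2.50 in myotubes (chr8:123500001-124000000). Its change of -0.405 did not pass the threshold, and it belongs to a group of 274 bins above 2 in myoblasts of which 208 were lower in myotubes (median change -0.123). That group was picked by its high myoblast values, so lower values in myotubes cannot be read as a result about these bins. The highest value of any bin was 3.37 in myoblasts and 2.99 in myotubes. Of 19 genes of excitation-contraction coupling and calcium handling, 2 were in risen bins, and both encode subunits of the muscle calcium channel. Cacng1 went from -0.124 to 0.519 and Cacna1s from 1.24 to 1.76. Among 14 genes of the dystrophin-associated complex, 0 were in changed bins. Dtna, which encodes dystrobrevin alpha, went from 0.428 to 0.0104. The 14 genes of muscle metabolism had 0 in changed bins as well, with the largest values at Cox6a2 (1.41 to 1.82) and Ckmt2 (0.285 to 0.639), and 13 of the 14 were in A in both conditions.

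Fusion and adhesion genes lay in bins of both directions, with 3 of 16 in risen and 3 in fallen bins. The shares of all protein-coding genes were 4.09 and 3.76%. With ranked PC1 the list had 2 genes in risen bins and 1 in a fallen bin. The risen genes were Itgb1 and its partner in muscle, Itga7 (0.977 to 1.68), and the adhesion molecule Ncam1 (0.379 to 1.05). The fallen genes were Dock1 and Dock5, exchange factors for RAC1 (0.385 to -0.218 and 0.650 to -0.00312, both A to B), and Cdh15, M-cadherin (3.11 to 2.59, within A). Of 16 extracellular matrix genes, 4 were in fallen bins and 1 in a risen bin. The fallen genes were Col6a1 and Col6a2, chains of collagen VI that share 1 bin (1.55 to 0.684), and the collagen IV genes Col4a1 and Col4a2 in another (0.953 to 0.294), so the 4 genes stand for 2 bins. The risen gene was Postn, periostin (0.391 to 1.08).

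Of 20 genes of growth factor and TGF-beta signalling, 4 were in risen bins (20.0%) and 0 in fallen bins. The shares of all protein-coding genes were 4.09 and 3.76%, and the list's median change was -0.0278. The risen genes were Tgfbr2 and Acvr2b, both in the long run of chr 9, Igf2, a growth factor of myogenesis (0.754 to 1.48), and Fst, follistatin, which binds myostatin (-0.252 to 0.391). Igf2 lies near Cdkn1c, the CDK inhibitor p57, which was the 1 risen gene of 12 cell-cycle exit genes (0.532 to 1.39). In the list of progenitor state and inhibitors of myogenesis, 2 of 19 genes were in risen bins, Heyl (0.521 to 1.33) and Dll1 (0.612 to 1.12), a target and a ligand of Notch, and 1 in a fallen bin, Msx2 (0.930 to 0.193).

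Of 25 genes of proliferation and mitosis, 16 were in A in each condition and 2 were in risen bins, Cdk2 (0.977 to 1.68, in the bin of Itga7) and Ccnb1, cyclin B1 (0.754 to 1.39), while 0 were in fallen bins. Of 22 DNA replication genes, 2 were in fallen bins, Mcm10 (1.27 to 0.640) and Cdt1 (3.11 to 2.59, in the bin of Cdh15). The HIST1 cluster holds replication-dependent histone genes, which are transcribed in S phase. Of 54 genes in 3 bins of chr 13, 49 were in 2 fallen bins, but with ranked PC1 these bins changed by -0.357 and -0.349 and none of the 49 genes passed. The bin with 31 of them (chr13:23500001-24000000) went from 0.756 to 0.109, and stood at 0.281 at day 7. The bin with 18 (chr13:21500001-22000000) went from 0.00723 to -0.564, and the bin with the other 5 (chr13:22000001-22500000) was in B with -0.998 and -1.02. Among 31 cytosolic ribosomal protein genes, 1 fell (Rps19, 0.745 to -0.134) and 0 rose, with a median change of -0.137.

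No marker gene of another lineage was in a risen bin, against 4.09% of all protein-coding genes. In lists this small such a count lies near that share. With ranked PC1, Lgr5 rose by 1.20 and Cdh5 by 0.564. Fallen bins held 3.76% of all protein-coding genes. Neural markers had 2 of 14 in fallen bins, Sox1 and Neurog1 (-0.0285 to -0.699), and the number in A was 6 in myoblasts and 3 in myotubes. Adipocyte and bone markers had 2 of 14 in fallen bins, Cebpa and Plin1 (1.63 to 1.04). Blood and endothelial markers had 1 of 13, Cd3e (0.0442 to -0.471), and liver and epithelial markers 0 of 14, with the largest values at Lgr5 (-0.968 to -0.544) and Cftr (-0.377 to -0.722). Over the 4 lists, the median changes were -0.149, -0.146, 0.101 and -0.0312. These values give compartments and not expression. Olfactory receptor genes, 1127 in 114 bins, were in A for 9.14% in myoblasts and 9.41% in myotubes. Of these genes 5 (0.444%) were in risen and 21 (1.86%) in fallen bins, both below the shares of all protein-coding genes. In myotubes 767 were higher and 360 lower, with a median change of 0.0461. With ranked PC1, 118 were in risen and 5 in fallen bins, against 913 and 728 of all 20370 protein-coding genes. The olfactory receptor genes that changed most were Olfr1402 (0.234 to 0.943), Olfr9 (0.977 to 1.68), and Olfr460 and Olfr461 (0.407 to -0.294).

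Which genes passed depended strongly on the scale. With ranked PC1, 247 of the 833 genes in risen bins and 217 of the 766 in fallen bins still passed, while 666 and 511 other genes passed on that scale only. Of the 19 risen and 17 fallen genes of the lists above, leaving out HIST1, the olfactory receptors and the lists supplied by the study, 7 and 8 still passed. The 7 were Ttn, Lmod3 (1.15), Itga7 and Cdk2 in one bin (0.693), Itgb1 (0.691), Tgfbr2 (0.535) and Neb (0.528). The 8 were Sox1 (-1.61), Col6a1 and Col6a2 (-0.782), Cebpa (-0.656), Cd3e (-0.581), Eya1 (-0.576), Neurog1 (-0.559) and Rps19 (-0.508).

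The other 12 risen genes were below the threshold with ranked PC1. They were Ccnb1 (0.472), Postn (0.452), Fst (0.431), Cdkn1c (0.333), Heyl (0.312), Acvr2b (0.278), Igf2 (0.203), Ncam1 (0.193), Cacna1s (0.185), Cacng1 (0.178), Dll1 (0.175) and Myl3 (0.149). So were 9 fallen genes, Msx2 (-0.493), Col4a1 and Col4a2 (-0.424), Dock1 (-0.410), Plin1 (-0.336), Mcm10 (-0.303), Dock5 (-0.244), and Cdh15 and Cdt1 (-0.186). Besides the 6 myosin genes, Lgr5 and Cdh5, the genes that rose with ranked PC1 only were Mybpc1, a myosin-binding protein of the thick filament (1.13), Cav3, caveolin of muscle (0.944), Rpl10a (0.706), and Jph2 and Mybl2 in one bin (0.623). Besides Myog, which shares its bin with Mybph and Btg2, those that fell were Kdr (-0.993), Cftr (-0.987), Jam3 (-0.741), Mki67 (-0.637), Fabp4 (-0.552) and Bub3 (-0.536).

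**Figure D5:**
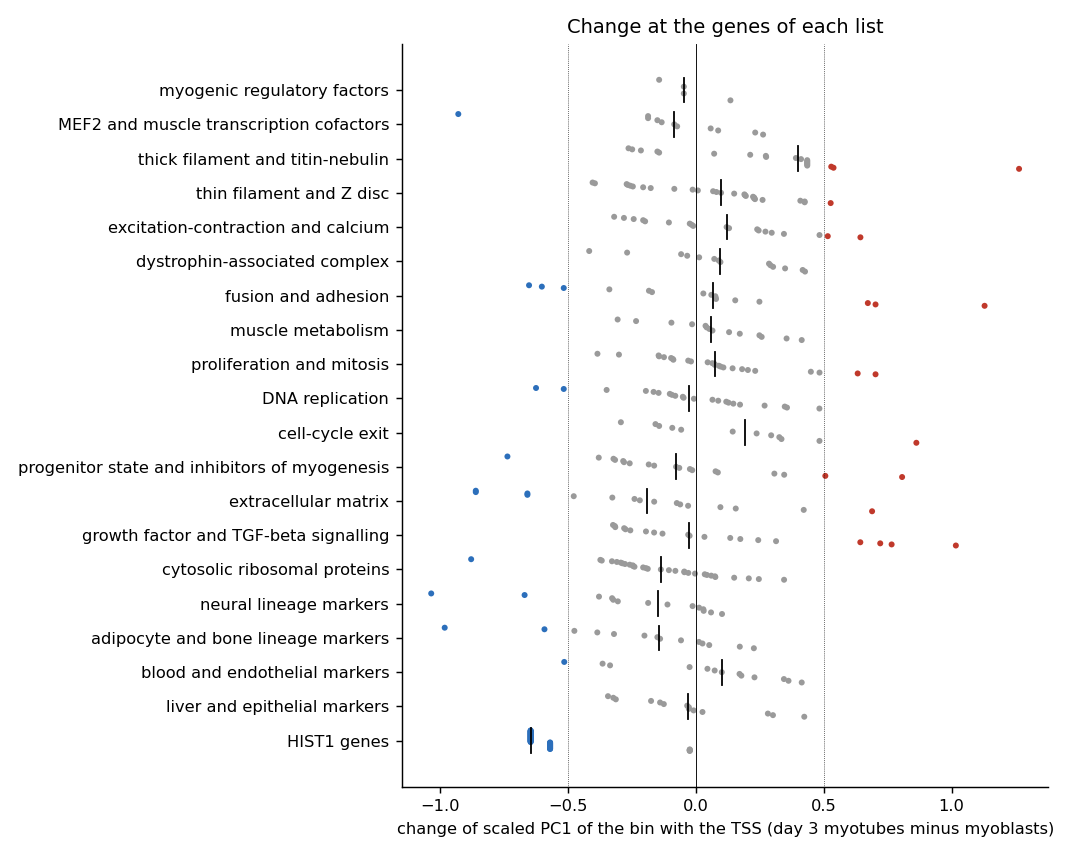
Change of scaled PC1 from myoblasts to day 3 myotubes (x axis) in the bin of each gene, by gene list (y axis). Each point is 1 gene, genes in one bin share a value, red and blue mark changes beyond 0.5 (dotted lines), and the black bar is the median of the list. Ttn is the point at 1.26 in the list of thick filament, titin and nebulin, and the HIST1 genes form 3 groups, one for each bin.

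From Gene Ontology lists in the study's supplement, 9 of 140 genes of muscle cell development were in risen bins (6.43%) and 4 in fallen bins (2.86%). The 4 largest changes were at Ttn, Itgb1, Prkar1a (-0.425 to 0.296) and Gsk3a (1.00 to 0.286). Of 702 genes of the mitotic cell cycle, 34 (4.84%) were in risen and 27 (3.85%) in fallen bins, close to the shares of all genes. Ccna1, Cdh13, Itgb1 and Ctdspl (-0.668 to 0.431) changed most.

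Lists of the genes with the most raised and most lowered RNA at day 3 were chosen by the study on its own RNA. By its methods, cells for RNA were grown in multiwell plates and cells for Hi-C in flasks. The lists are no independent evidence of the direction of RNA. Of 254 raised genes placed in bins, 23 (9.06%) were in risen bins and 5 (1.97%) in fallen bins, and of 268 lowered genes, 6 (2.24%) were in risen and 21 (7.84%) in fallen bins. Of all protein-coding genes, 4.09% were in risen and 3.76% in fallen bins. The median changes of the raised and lowered lists were 0.0861 and -0.0459. With ranked PC1 the counts were 27 and 5 for the raised and 5 and 21 for the lowered genes. On that scale 913 of all 20370 protein-coding genes were in risen and 728 in fallen bins. Only 9 of the 23 and 6 of the 21 passed on both scales. Most genes of both lists were thus in bins that did not pass the threshold. Among the raised genes, the largest changes were at Ttn, Dclk1, Tspan32 (0.532 to 1.39) and Col6a2, the last a fall. Among the lowered genes they were at Gpr137b, Rhpn2, Creb5 (1.87 to 0.964) and Esco2 (0.976 to 0.127), all falls. Ccnb1 and Cenph, in the lowered list, lay in a bin that rose.

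In median gene number and GC content, changed bins lay between bins in B and bins in A throughout. The median number of protein-coding TSSs was 3 in risen bins and 4 in fallen bins, against 5 in bins in A throughout, 1 in bins in B throughout and 2 in all bins that did not change. Median GC content was 44.1% in risen and 43.7% in fallen bins, against 44.4, 39.9 and 41.4%. The share of repeat-masked bases was 27.5% in risen and 26.5% in fallen bins, against 28.3, 35.3 and 31.9%. HindIII sites, which set how many fragments a bin can contribute, had medians of 153 in risen and 160 in fallen bins, against 152, 166 and 162. Their correlation with the change was -0.0991 across bins and that of GC content 0.0580. Of the risen bins 19 and of the fallen bins 8 had no protein-coding TSS.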

How the data were processed

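C2C12 Hi-C libraries of myoblasts and day 3 myotubes were analysed, with AraC-treated myotubes as a side value. By the study's methods, reads were mapped with Bowtie and filtered in HiCUP, and HOMER made 500 kb correlation matrices for each replicate and matrices of pooled replicates at a smaller bin size. The labels give 1 matrix of 500 kb bins for both replicates of a condition, taken here as pooled. The submitters' processing notes list mm10 among the builds, whose coordinates the bins follow. The values deposited by the authors are scores, correlation coefficients between the interaction profiles of pairs of bins, and hold no read counts, so the depth behind each one is unknown. Columns of unmapped samples numbered 0.

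PC1 was computed per chromosome from the centred within-chromosome block, signed by protein-coding TSSs (GENCODE vM21), and divided by its SD. A change above 0.5 was called and at least 2 adjacent called bins made a run. The steps were tested on simulated matrices. With 1 matrix per condition no test was run, and exact binomial intervals (95%) cover counting error only. GC, repeats, HindIII sites and promoters came from RefSeq GRCm38.p6. Computations ran in Python 3.11.15 (NumPy 2.4.6, SciPy 1.17.1), and plots in Matplotlib 3.10.9.

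Named were the 8 largest rises and falls, the 5 longest runs and the 3 largest changes of sign in each direction, the 3 highest and 2 lowest chromosomes, up to 4 genes of each list (the 2 largest changes where none was called) and fixed muscle genes. Other genes of these bins and runs, neighbours that share a value, and genes called on the rank scale only were chosen after their values were seen. A few genes are not reported here. Members and lists were chosen with earlier results of these data known. Alternatives covered centring, near pairs, odd or even partners, trans coefficients, scaling, thresholds, the definition of A and B, and the gene's middle in place of its TSS.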

Additional observations from a re-analysis of the deposited data

How the results depend on the processing

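No paired analysis was possible because both replicates of a condition are given 1 matrix, and for the same reason none could be left out. The counts of risen and fallen bins and of their runs, and of sign changes, stayed within 1.5 times under uncentred columns, masked near pairs, odd or even partner bins, trans coefficients, a diagonal above 0.9 and removal of a linear trend with position. The correlation of scaled PC1 was 0.961 with the trans component, 0.955 scaled by the median absolute deviation, 0.951 with ranks and 0.969 with the trend removed.

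Scaling by the median absolute deviation gave 670 risen and 507 fallen bins in 130 and 101 runs. PC1 not divided by its SD gave 1173 and 1542 bins in 190 and 318 runs, where the wider spread of the myotube values enters, and 12 of the 140 fallen bins then had the opposite direction. With ranks turned to normal quantiles, 251 bins rose and 221 fell, of which 73 of the 181 rises and 50 of the 140 falls were shared, so which bins pass the threshold depends on the scaling. The genes gained and lost on that scale are given with the gene lists. A threshold of 0.75 left 49 and 30 bins in 10 and 5 runs, and a threshold of 1 left 20 and 5 bins in 4 runs and 1. Requiring an absolute scaled PC1 above 0.25 in both conditions left 34 of 346 sign changes. The compartment contrasts, as ratios of myotubes to myoblasts, were 1.90 in cis and 2.12 in trans with bins of the highest and lowest 20% of scaled PC1, and 1.99 in cis for pairs over 10 Mb apart, but 1.07 and 1.11 after division by the SD of the pairs.

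The 17 bins named for the largest rises, falls and changes of sign kept their direction in all 170 values and passed the threshold in 168. They were picked for their large change in these same matrices, so their stability does not extend to the other bins and genes named. The 170 values include PC1 not divided by its SD, where far more bins pass the threshold. Placing genes by their middle moved the count of changed genes by more than 1.5 times in 1 of 25 lists. The cause of these differences was not tested. The spread between cultures could not be measured from these matrices. By the study's supplement, the replicate matrices of myoblasts were less alike than those of myotubes, and hardly more alike than myoblasts and myotubes were, which limits every change above.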
